A study of Mus musculus with 2 samples.

Results

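The genes examined here are 10 members of the cell's innate defence against foreign nucleic acid, taken by gene symbol from the expression tables of mouse embryonic stem cells (mESCs) depleted of the deubiquitinase USP21. They are Ddx58 (RIG-I), Ifih1 (MDA5), Mavs, Tmem173 (STING), Tbk1, Irf3, Ripk1 (RIP1), Isg15, Oasl2 and Ifit1, and all 10 were found among the 23889 symbols listed. The cells were E14, a feeder-free mESC line (mouse strain given as 19/Ola), grown on gelatin in medium with 15% serum and 1000 U/ml LIF. One culture received a control shRNA (genotype given as normal) and the other an USP21 shRNA (genotype given as USP21 knockdown), and RNA was collected 3 days after transfection. Each group is a single library, so no difference below has a replicate check and no p-value is given. The labels do not say which USP21 shRNA was used, nor what share of the cells took it up.

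RIG-I and MDA5 are helicases that recognise viral RNA in the cytosol and pass the signal to MAVS on the mitochondrial surface, while STING relays the signal that cGAS raises on cytosolic DNA. Both routes reach the kinase TBK1, which phosphorylates the transcription factor IRF3, and interferon made in response then induces interferon-stimulated genes such as Isg15, Oasl2 and Ifit1. Ubiquitin chains on RIG-I, STING and RIP1 carry part of this signal, and all 3 proteins have been described as USP21 substrates. Pluripotent cells are known for a weak interferon response. RNA sequencing measures the transcripts of these genes and not the ubiquitination of their proteins.

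Interferon-stimulated genes are switched on through a promoter element read by IRF proteins and by ISGF3, with the core GAAANNGAAA. This core was searched on both strands, overlaps allowed, in windows from 250 bases before to 50 bases after each transcription start in RefSeq (GRCm38.p6). Of 32851 such windows 3.44% held it, and of 27025 genes 3.99% held it in at least one window. Tmem173 had no window. Of the other 9 members (10 starts), 5 held it, namely Isg15, Ifit1, Ddx58, Ifih1 and, at the second of its starts, Ripk1. Mavs, Irf3, Tbk1 and Oasl2 had no match, which says only that these letters were absent from the window. The stretches below show where the element lies in the members, read 5′ to 3′ on the gene's strand with the core in capitals. In Ifit1 and Ddx58 the core lies on the opposite strand, so that its reverse complement is seen.
Isg15 (chr4:156200855-156200916, minus strand): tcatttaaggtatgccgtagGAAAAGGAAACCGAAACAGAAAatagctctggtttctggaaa
Ifit1 (chr19:34640765-34640833, plus strand): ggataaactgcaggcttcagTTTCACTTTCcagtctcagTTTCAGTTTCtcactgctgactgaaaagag
Ddx58 (chr4:40239804-40239833, minus strand): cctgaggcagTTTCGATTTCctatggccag
Ifih1 (chr2:62646206-62646233, minus strand): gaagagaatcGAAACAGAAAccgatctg
Ripk1, second start (chr13:34002859-34002888, plus strand): aacgttcccgGAAATCGAAAagcgcggaac

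In Isg15 the core stood 3 times in overlap, from base -78 to base -57 before the start, and only 5 of the 32851 windows held 3 or more copies. Ifit1 carried 2 copies, at -104 to -95 and at -85 to -76. In Ddx58 and Ifih1 the match lay just downstream of the start, at bases 3 to 12 and 33 to 42. At the second start of Ripk1 it spanned the start, from base -5 to base 5. A match is a run of letters and was not tested for binding.

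**Figure D1:**
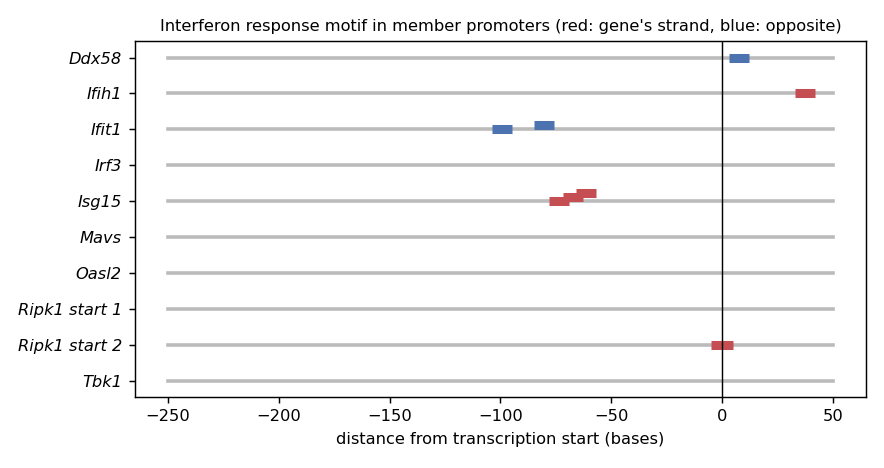
Position of the core in the promoter windows of the members, as distance from the transcription start in bases; each grey line is 1 window, red bars are matches on the gene's strand and blue bars matches on the opposite strand, with overlapping matches raised. The copies wholly upstream of the start are those of Isg15 (3) and Ifit1 (2), and the match at the second start of Ripk1 spans the start.

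The targeted gene was lower in the library labelled USP21 shRNA. The FPKM of Usp21 (fragments scaled to transcript length and to library size) was 26.2 with control shRNA against 3.49 after knockdown. Differences are given as the log2 ratio of USP21 shRNA over control shRNA after adding 0.1 to each FPKM, a scale on which differences of low genes appear smaller than they are, and this ratio was -2.87 for Usp21. Summed FPKM came to 613617 and 543206, and from the size of single-fragment steps the control library was sequenced about 1.23 times as deeply. For the 15316 genes that reached an FPKM of 0.1 in either library, the median log2 ratio was 0.0046, and rescaling the libraries to equal sums (TPM) moved that median to 0.17, so values after rescaling are read against it. The shift was smaller in genes near the added 0.1. The log2 ratio also moved with transcript length, over the 11378 genes with an FPKM of at least 1 in either library and a known length. Its median went from -0.20 in the shortest decile of these genes to 0.25 in the longest. The part this plays in single genes was not tested. The 9 mESC markers summed to 4563 and 3522, with 8 of them lower and 1, Utf1, higher (289 and 305). Nanog, at 467 and 258, was the only 1 past 1.5-fold. Pou5f1 was at 868 and 752, and Dppa5a, the most abundant, at 1849 and 1285. In bulk RNA fewer cells of a type and less RNA per cell cannot be told apart. The 9 markers of macrophages and other blood cells summed to 15.9 and 21.0, 5 of them past the filter, most of it from Cd68, at 14.3 and 18.8. Itgam was at 0.711 and 1.42, the only one of these past 1.5-fold, and Spi1 at 0.660 and 0.494, while Ptprc, the defining CD45 gene, was at 0.0069 and 0.0090 and Emr1 was listed at 0 in both libraries. The 8 fibroblast markers summed to 19.9 and 7.19, mostly from Thy1, at 17.3 and 5.29. Of the 4 past the filter, Thy1, Pdgfrb (1.65 and 1.14) and Col1a1 (0.801 and 0.560) were lower. Col1a2 was higher, at 0.113 and 0.167, and Lum was listed at 0 in both. The part of such cells in the results was not tested.

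The members fell into 3 ranges of abundance in the mESCs. Tbk1, Mavs, Irf3, Ddx58, Ripk1 and Tmem173 had an FPKM between 1.81 and 14.7 in both libraries. Isg15 and Oasl2 lay between 0.271 and 0.998, and Ifih1 and Ifit1 stayed under 0.1. Tbk1, the most abundant, stood at percentile 78.1 of all genes in the control library, and Ifit1, the least abundant, at percentile 32.8. The order of the levels was the same in both libraries except that Irf3 stood above Mavs after USP21 knockdown. No spread between replicates exists to say which neighbours in this order differ.

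**Figure D2:**
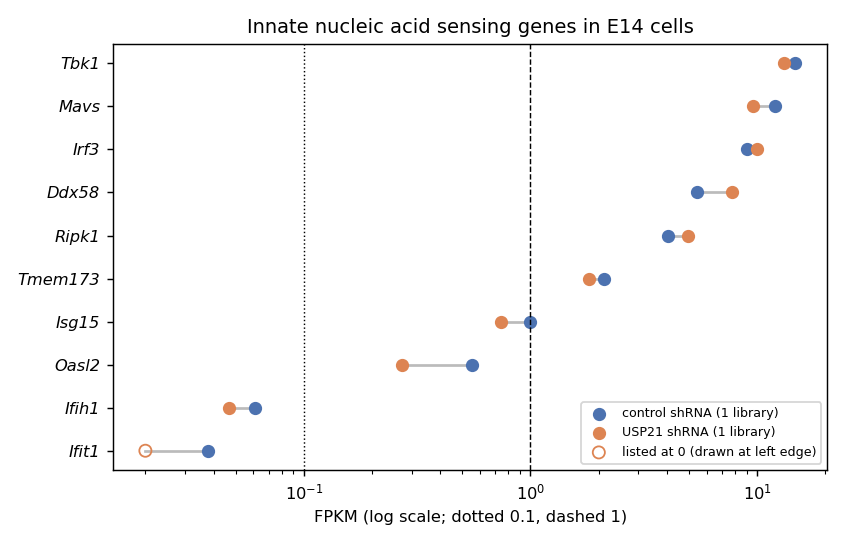
FPKM (log scale) of the 10 members in the control shRNA library (blue) and the USP21 shRNA library (orange), 1 library each and no error bars. The signalling genes sit at 1.81 to 14.7, Isg15 and Oasl2 under 1, and Ifih1 and Ifit1 under 0.1; the open circle marks Ifit1, listed at 0 with USP21 shRNA.

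On the log2 scale with 0.1 added, on which all fold counts here are made, no member differed by 2-fold. Oasl2 came nearest, and its FPKM values without the added 0.1 differed by slightly over 2-fold. Of the 8 members past the filter, 0 were higher and 0 were lower by 2-fold, against 3.40% and 3.00% of all 15316 genes. At 1.5-fold, 0 were higher and 1, Oasl2, was lower, against 10.2% and 8.84% of all genes. Among members with an FPKM of 1 to 20, 0 of 6 passed 1.5-fold in either direction, where 17.8% of 7430 genes in that range did. Among those of 0.1 to 1 it was 1 of 2, where 35.8% of 3389 genes did. The signs were mixed, with 3 of the 8 higher (Ddx58, Ripk1 and Irf3) and 5 lower, and the median log2 ratio of the 8 was -0.19, against 0.0046 over all genes. After rescaling to equal sums these medians were -0.016 and 0.17. Over the 6 members with an FPKM of at least 1 the median was -0.014, against 0.0031 over the genes of that level. Over the genes with an FPKM of 1 to 20, the range of all 6, it was 0.056. With so few members these shares lie near the background.

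**Figure D3:**
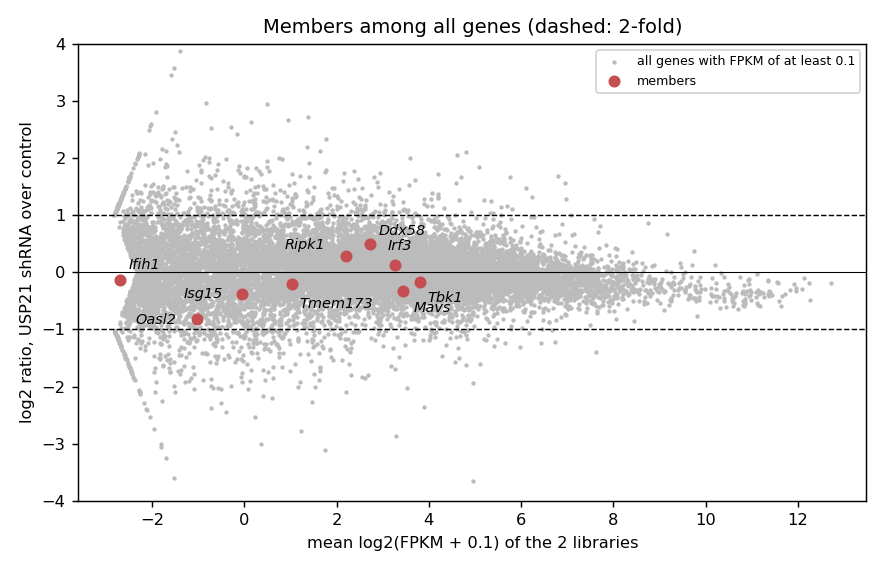
Log2 ratio of USP21 shRNA over control shRNA against the mean log2(FPKM + 0.1) of both libraries, for genes with an FPKM of at least 0.1 (grey) and for the 9 members above 0 in both libraries (red); dashed lines mark 2-fold, and 4 genes lie outside the axis. Every red point lies between the dashed lines, with Ddx58 highest at 0.50 and Oasl2 lowest at -0.81.

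Among the RNA sensors, Ddx58 (chromosome 4, 40203773 to 40239828 of GRCm38) encodes RIG-I, which binds RNA ends that carry a triphosphate. Its FPKM was 5.46 in the control library and 7.75 with USP21 shRNA, 1.42 times as high. This log2 ratio of 0.50 was the largest upward value of the members, and 13.3% of the genes with an FPKM of 1 to 20 lay as high or higher. After rescaling to equal sums it was 0.67, past 1.5-fold, where the median of all genes was 0.17. Ifih1 (chromosome 2, 62595798 to 62646255), whose product MDA5 binds long double-stranded RNA, was at 0.061 and 0.047. At such values single fragments make visible steps, so the difference rests on few fragments. On this scale, which is per transcript length, Ddx58 was the more abundant of these helicases in either library.

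Of the adaptors, Mavs (chromosome 2, 131234063 to 131248025), which links both helicases to the kinases, had an FPKM of 11.96 in the control library and 9.56 after knockdown. Its log2 ratio was -0.32, with 17.2% of the genes in its range as low or lower. Tmem173, the gene of STING, was the lowest of the signalling genes, at 2.10 and 1.81. The corresponding log2 ratio was -0.21, with 24.2% of the genes in its range as low or lower. Ripk1 (chromosome 13, 34002363 to 34037147) encodes a kinase that serves as a scaffold between death receptors or RIG-I and NF-κB. Its FPKM was 4.06 and 4.96, with a log2 ratio of 0.28, which was 0.12 once the trend with transcript length was subtracted. Before that subtraction, 27.2% of the genes in its range lay as high or higher. Exons of Ripk1 overlap those of Gm17084 on the same strand and Serpinb6a on the opposite strand, and the strand setting of the counting is not stated.

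The kinase and the transcription factor at the end of the chain had, before rescaling, the log2 ratios nearest 0 of the members past the filter. Tbk1 (chromosome 10, 121546455 to 121586787) was the most abundant member, at 14.7 and 13.1. Its log2 ratio was -0.16 where the median of all genes was 0.0046, and 0.010 after rescaling to equal sums, where that median was 0.17. The sign of Tbk1 thus changed with the scaling, while it lay below the median of all genes under both. Before rescaling, 27.7% of the genes in its range lay as low as Tbk1 or lower. Irf3 (chromosome 7, 44997648 to 45002848) stood at 9.07 and 9.97, a log2 ratio of 0.14, and 41.6% of the genes in its range lay at least as high. Exons of Bcl2l12 overlap those of Irf3 on the opposite strand.

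Isg15, Oasl2 and Ifit1, induced by interferon as Ddx58 and Ifih1 also are, had an FPKM under 1 in both libraries, and each had the lower value with USP21 shRNA. Isg15 (chromosome 4, 156199424 to 156200818), a ubiquitin-like protein that is attached to other proteins, had an FPKM of 0.998 in the control library and 0.741 in the other. The log2 ratio was -0.38, and -0.16 with the length trend subtracted, since its transcript is short (756 bases). Oasl2 (chromosome 5, 114896936 to 114912234), a 2′-5′-oligoadenylate synthetase-like protein, was at 0.550 and 0.271. This was the largest difference of any member, a ratio of 0.49 on the FPKM itself and a log2 ratio of -0.81 with the pseudocount, and 10.2% of the genes with an FPKM of 0.1 to 1 lay as low or lower. Ifit1 (chromosome 19, 34640871 to 34650009), which binds foreign RNA caps, was at 0.038 in the control library and listed at 0 in the other, so no ratio is given. It did not pass the filter, and its difference lies where single fragments make visible steps. Of the 31-base words of Ifit1 and Isg15, 10.5% and 12.8% also occur in other genes, of Ifit1bl2 and AC151275.1 most often, and how such fragments were assigned is not stated. In the other members this share was at most 5.9%.

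**Figure D4:**
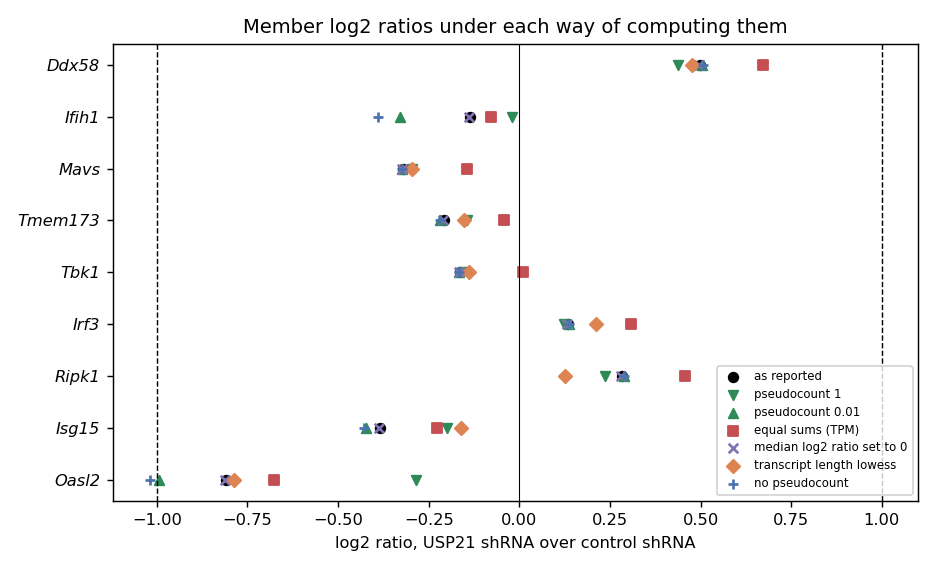
Log2 ratio of USP21 shRNA over control shRNA for the 9 members above 0 in both libraries, as reported (black) and under each other pseudocount, scaling or length correction; dashed lines mark 2-fold. Ddx58, Irf3 and Ripk1 stay above 0 and Oasl2, Isg15, Mavs, Tmem173 and Ifih1 below 0, whereas Tbk1 crosses 0 after rescaling to equal sums, which moves the median of all genes to 0.17; Oasl2 reaches -1.02 with no pseudocount.

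To place the members in their pathway, 8 lists of genes by role were compared in the same way. Of 14 RNA sensing genes, 12 passed the filter and 0 of them differed by 1.5-fold, against 10.2% higher and 8.84% lower among all genes. The most abundant, Ddx3x, an RNA helicase with many roles, had 167 and 206. Of 17 DNA sensing genes 15 passed, and 0 of them differed by 2-fold. At 1.5-fold 1 was higher (Aim2, 1.06 and 1.70) and 2 were lower (Zbp1, 1.06 and 0.576, and Rnaseh2b, 52.5 and 33.5), all named after their values were seen. These were 6.67% and 13.3% of the 15, near the 10.2% and 8.84% of all genes. Hmgb1, a chromatin protein and the most abundant of this list, had 503 and 435. Mb21d1, which encodes the DNA sensor cGAS upstream of STING, was at 1.89 and 2.00.

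Among 28 adaptors, kinases and transcription factors, 19 were higher and 9 lower, where 50.5% and 49.5% of all genes were, and the median log2 ratio was 0.12. In each direction 1 of the 28 was past 2-fold with 0.1 added, a share near the 3.40% and 3.00% of all genes. At 1.5-fold 1 was higher and 3 were lower (3.57% and 10.7%, against 10.2% and 8.84% of all genes). Fadd, the death-domain adaptor that binds RIP1 and caspase-8, had an FPKM of 2.31 in the control library and 6.04 with USP21 shRNA, a log2 ratio of 1.35. Ikbke, a kinase closely related to Tbk1, had 2.59 and 1.23, a log2 ratio of -1.01. On the same scale, between 1.5-fold and 2-fold lower lay Tank, an adaptor that binds TBK1, at 4.98 and 2.45 (log2 ratio -0.99), and Casp8, at 5.66 and 3.71, both named after their values were seen. Without the added 0.1 the FPKM values of Tank differed by slightly over 2-fold. Of 23 ubiquitin ligases and deubiquitinases of the pathway, Usp21 itself was the only one past 2-fold, and 1 other gene passed 1.5-fold (Usp25, 2.46 and 3.79, named after its value was seen). At 1.5-fold this made 4.35% higher and 4.35% lower, Usp21 being the lower gene, against 10.2% and 8.84% of all genes.

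No transcript of the interferons on the list was recorded. Of 10 interferon and cytokine genes, 8 were listed at 0 in both libraries, among them Ifnb1, Ifna1, Ifna2, Ifna4 and Ifna5. Of all 23889 symbols, 6578 were listed at 0 in the control library and 6638 with USP21 shRNA. Of 14 housekeeping genes 14 were above 0, which does not show whether a low transcript would be recorded. The files give no counts from which a limit for these zeros could be set. Cxcl10, a chemokine that interferon and NF-κB induce, was the only gene of this list past the filter, at 0.449 and 0.685. All 7 genes of the interferon receptor and of its signalling to ISGF3 had an FPKM of at least 1, and 0 of them differed by 1.5-fold, against 7.77% higher and 6.46% lower among all genes of that level. Jak1, the receptor-bound kinase and the most abundant, was at 14.2 and 18.3.

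The list of 47 interferon-stimulated genes, which includes Isg15, Oasl2, Ifit1, Ifih1 and Ddx58, held more genes lower by 1.5-fold than higher before rescaling. After rescaling to equal sums both counts were the same, while the share lower remained above that of all genes. Of the 39 past the filter, 12 were lower and 3 were higher by 1.5-fold (30.8% and 7.69%, against 8.84% and 10.2% of all genes), with a median log2 ratio of -0.16 against 0.0046. Of the 25 with an FPKM of at least 1, 8 were lower and 1 was higher, against 6.46% and 7.77% of 11927 genes. After rescaling to equal sums 7 were lower and 7 were higher, 17.9% each, against 6.03% and 16.3% of all genes, and the median was 0.0062 against 0.17. With the length trend subtracted 7 were lower and 3 higher (17.9% and 7.69%, against 8.13% and 9.70% of all genes). The 3 higher genes were Ifi27 (6.25 and 11.9), Gbp2 (0.257 and 0.533) and Mx2 (0.032 and 0.130), named after their values were seen. The 12 lower genes included Ifitm3 (216 and 134), B2m (35.02 and 20.39), Psmb9 (4.47 and 2.72) and Ifi35 (3.96 and 2.52). They also included Lgals3bp (1.18 and 0.645), Rtp4 (1.05 and 0.636) and Psmb8 (0.555 and 0.333), all likewise named after their values were seen. With the length trend subtracted, Ifitm3, B2m, Ifi35, Rtp4 and Psmb8 were lower by less than 1.5-fold. With 0.1 added to each FPKM, 3 of the 39 were lower by 2-fold and 0 higher, against 3.00% and 3.40% of all genes. Without it the FPKM of Gbp2 and Mx2 differed by more than 2-fold upward and that of Oasl2 and Isg20 (0.404 and 0.158) downward, all at an FPKM under 1. Xaf1, a pro-apoptotic protein, had an FPKM of 22.2 and 9.65, a log2 ratio of -1.19. Ube2l6, the conjugating enzyme for ISG15, had 1.49 and 0.689, a log2 ratio of -1.01. The remaining gene past 2-fold, Cmpk2, had an FPKM under 1 in both libraries (0.968 and 0.285). In the 5 genes of ISG15 conjugation, Ube2l6 was the only one past 1.5-fold. It was 1 of 4 past the filter (25% lower, against 8.84% of all genes).

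**Figure D5:**
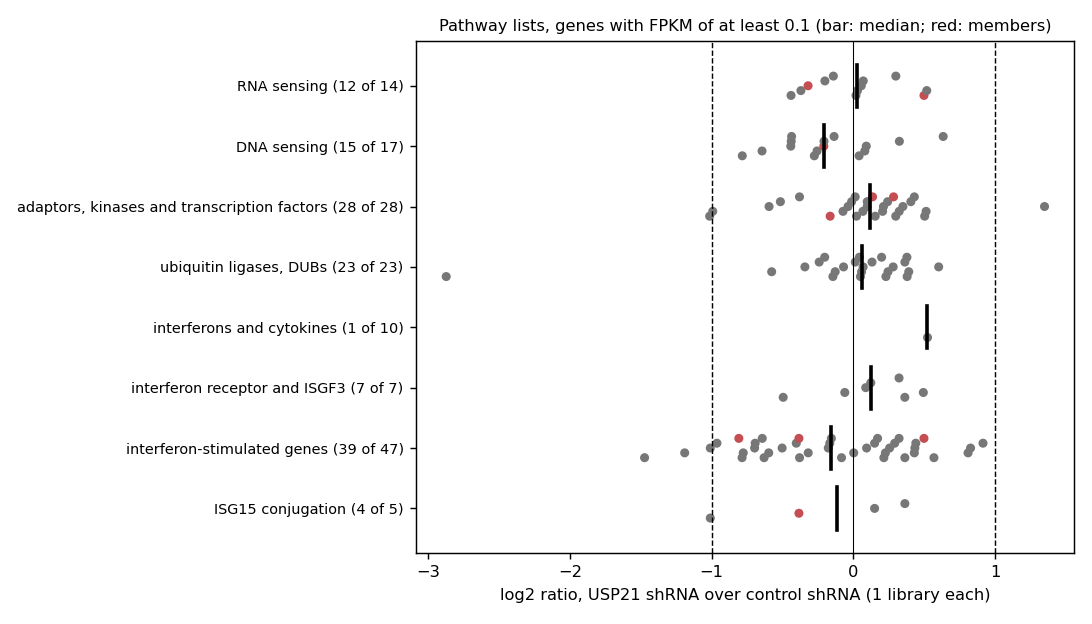
Log2 ratio of USP21 shRNA over control shRNA for the genes of each pathway list past the FPKM filter of 0.1 (number past the filter of number listed in brackets); black bars are medians, red points are the members, dashed lines mark 2-fold. Fadd stands apart on the right at 1.35 and Usp21 on the left at -2.87, and the median of the interferon-stimulated genes lies at -0.16 (median of all genes 0.0046), or at 0.0062 after rescaling to equal sums (0.17).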

How the data were processed

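RNA sequencing of 2 libraries of E14 mESCs was analysed, 1 per group. The authors deposited FPKM values, 1 per gene symbol and library. The submitters' processing notes name CASAVA 1.8.2, TopHat2 2.0.14, Cufflinks 2.2.1 and the build mm9, without roles. Annotation and strand setting are not given in the sources used here. The files hold no counts, so no interval or detection floor was computed and depth is known only relative between the libraries.

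A pseudocount of 0.1 was added before taking log2 ratios, and genes that reached FPKM 0.1 in either library were kept. With 1 library per group no test was run; genes past 2-fold or 1.5-fold were counted beside all genes. Members and lists were chosen with earlier results of these data known. Apart from the members, genes were named where past 2-fold with FPKM of at least 1, or, failing that, as the most abundant of their list. Exceptions are said to be so or are markers, housekeeping genes or list members given by role.

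Positions, transcript lengths (95.2% of the kept genes had one) and 31-base words came from GENCODE M21 (GRCm38), matched by symbol, and promoters from RefSeq. No coordinates came from the files. Values were recomputed with a pseudocount of 1 or 0.01, without a filter, with a filter at FPKM 1, with equal sums, with the median set to 0, with a lowess correction for length (span 0.3) and, chosen after seeing the data, with no pseudocount. The ratio script was tested on simulated data. Python 3.11.15, numpy 2.4.6, pandas 2.3.3, statsmodels 0.14.6 and matplotlib 3.10.9 were used.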

Additional observations from a re-analysis of the deposited data

How the results depend on the processing

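With a single library per group, no replicate could be left out and no spread between replicates is known, so a log2 value was taken as moved when it shifted by 1.5-fold or more, and a count when it changed by more than 1.5-fold. By that measure 142 of 150 recomputed values did not move and 8 did, all 8 of them counts. Rescaling to equal sums shifts a log2 value by at most 0.18, and setting the median to 0 shifts it by 0.0031. Both are under the log2 of 0.585 that 1.5-fold stands for. No log2 value could therefore move under those settings, and the tally does not measure stability there. In 6 cases the sign changed or the value went to 0 without being scored as moved. The number of members lower by 2-fold was 0, but 1 (Oasl2) when 1.5-fold was counted and 1 with no pseudocount, an alternative added after seeing the data. The number of interferon-stimulated genes lower by 1.5-fold was 12 (30.8%, against 8.84% of all genes). It was 4 with a pseudocount of 1 (10.3% against 3.43%) and 7 after rescaling to equal sums (17.9% against 6.03%). After the length correction it was also 7 (17.9% against 8.13%). With the filter at FPKM 1 it was 8 (32% against 6.46%), a change of 1.5-fold and not more. The number higher was 3 (7.69% against 10.2%). With a pseudocount of 1 it was 1 (2.56% against 4.05%). With the filter at FPKM 1 it was 1 (4% against 7.77%), and after rescaling 7 (17.9% against 16.3%). These counts were also added after seeing the data. Among the members only Tbk1 changed sign (-0.16, or 0.010 after rescaling, which took the median of all genes from 0.0046 to 0.17), and the cause of the other shifts was not tested. The median of the RNA sensing genes went from 0.024 to -0.050 after the length correction, and that of ISG15 conjugation from -0.12 to 0.15 without a filter and to 0.020 after rescaling. No paired analysis was possible because each group holds 1 library. Ifih1 and Ifit1 lie in the range where single fragments make steps.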
